A study of Homo sapiens with 6 samples.

Results

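The genes described here are 34 genes of cholesterol and fatty acid synthesis, chosen by symbol from a list, with no measured value in the rule. Earlier results of these data were known when they were chosen. The 34 genes were followed in cardiomyocytes grown from WTC11, an established human induced pluripotent stem cell line. All 34 were found among the 35793 genes listed. All 34 also passed the filter on low values, a mean over the 6 libraries of 10 normalized counts or more, and so were among the 15536 genes tested. The wild-type group was unedited WTC11, and the knockout group came from a WTC11 derivative in which STK25 was homozygously disrupted with CRISPR/Cas9. The disrupted gene codes for a protein kinase. There were 3 biological replicates per genotype, harvested at day 15 of differentiation without treatment, and the derived cells were kept in RPMI 1640 with B27 supplement. The knockout was 1 cell line, so the edit cannot be told apart from any other difference between the lines.

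Cholesterol is built from acetyl-CoA. The mevalonate pathway makes isoprenoid units, squalene is assembled from them and closed into the ring of lanosterol, and a last series of enzymes trims lanosterol to cholesterol. Fatty acid synthesis draws on the same acetyl-CoA. Both branches are switched on by the sterol regulatory element-binding proteins (SREBPs), membrane-bound transcription factors that SCAP carries from the endoplasmic reticulum to the Golgi for cleavage, and that INSIG proteins hold back when sterols are plentiful. SREBP-2 acts mainly on sterol genes and SREBP-1 on fatty acid genes, in many promoters together with the CCAAT-binding factor NF-Y. Heart muscle burns fatty acids as its main fuel and needs cholesterol for its membranes.

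Promoter sequence is shown for 4 genes of the pathway that rose in the knockout, FDPS, MVD, HSD17B7 and NSDHL, and for MYLIP, which fell. Each was taken from the 250 bases before the most upstream transcription start that RefSeq lists on GRCh38.p14. It is read 5′ to 3′ on the gene's strand, and it stops before the gene's first base in GENCODE 29. Capitals mark CCAAT or its reverse complement ATTGG.
FDPS, plus strand, chr1:155308616-155308747: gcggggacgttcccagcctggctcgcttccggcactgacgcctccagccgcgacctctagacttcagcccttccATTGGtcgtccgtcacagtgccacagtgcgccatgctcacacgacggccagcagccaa
MVD, minus strand, chr16:88663162-88663341: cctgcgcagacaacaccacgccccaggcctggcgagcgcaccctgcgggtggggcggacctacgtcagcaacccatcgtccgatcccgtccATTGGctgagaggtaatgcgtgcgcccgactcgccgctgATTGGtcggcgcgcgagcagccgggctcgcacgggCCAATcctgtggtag
HSD17B7, plus strand, chr1:162790452-162790701: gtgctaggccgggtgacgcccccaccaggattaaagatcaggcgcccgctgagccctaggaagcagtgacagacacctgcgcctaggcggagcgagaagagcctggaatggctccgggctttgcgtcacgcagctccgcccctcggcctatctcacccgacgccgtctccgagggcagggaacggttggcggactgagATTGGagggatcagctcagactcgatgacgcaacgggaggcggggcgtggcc
NSDHL, plus strand, chrX:152830813-152830966: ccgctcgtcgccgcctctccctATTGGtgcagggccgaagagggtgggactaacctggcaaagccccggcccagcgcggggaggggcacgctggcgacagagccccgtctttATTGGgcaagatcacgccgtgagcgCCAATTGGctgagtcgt
MYLIP, plus strand, chr6:16128836-16129085: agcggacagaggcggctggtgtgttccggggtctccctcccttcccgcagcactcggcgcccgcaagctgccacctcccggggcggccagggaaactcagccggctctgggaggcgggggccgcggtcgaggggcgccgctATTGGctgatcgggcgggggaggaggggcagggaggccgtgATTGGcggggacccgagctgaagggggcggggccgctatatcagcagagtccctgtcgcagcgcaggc
MVD showed 3 matches, MYLIP 2, and HSD17B7 and FDPS 1 each. NSDHL showed 4, of which 2 overlap in 1 palindromic stretch. Over the whole 250 bases before a start, genes that rose had both high and low numbers of matches. Among genes that rose, NSDHL held 5, FDPS, MVD and EBP 3 and SREBF1 0, DHCR7 held 2 and 0 in its windows, and IDI1 held 0, 2 and 3. Of the genes that fell, SC5D held 1 in both windows and MYLIP 2, while MVK with 5 and MSMO1 with 4 did not pass. RefSeq windows were found for 30 of the 34 genes, 40 windows in all, since some genes have several starts. ACAT2, FDFT1, SQLE and FASN were without an entry. At least 1 CCAAT, on either strand, was in 65.0% of the 40 windows and in 32.0% of all 35116 windows of the same length, and at least 3 were in 17.5% and 2.93%. The sterol element core CACNCCAC, searched on both strands, was in 17.5% of the 40 windows and 4.87% of all. Its longer form TCACNCCAC, which contains the core, was in 1 of the 40 windows, that of SREBF2, and in 0.883% of all. Other motifs searched in the same way were also more frequent in the 40 windows. GGGCGG was in 92.5% of them and 42.6% of all, and CACGTG in 12.5% and 6.34%. A higher share was thus not particular to CCAAT and the sterol element. These matches describe letters in a window and are not measured binding sites. The full set of windows covers non-coding genes too.

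The reads recovered per library ranged from 22443904 to 53224112. STK25 itself, which checks the labels, had 8874, 6774 and 8710.4 normalized counts in wild-type replicates 1, 2 and 3 and 3906, 3434 and 3819.7 in the knockout. It fell by 1.12 on the log2 scale (SE 0.19, limma adjusted p = 0.00903), and the value without wild-type replicate 1 was -1.05 (limma adjusted p = 0.0611). Over all genes tested, 12.8% had a limma adjusted p under 0.05, 5.97% higher and 6.79% lower in the knockout. In 33.4% the values of the genotypes did not overlap. Wild-type replicate 2 and knockout replicate 1 stood apart from the other libraries of their genotype, with long transcripts low and short ones high. Against the mean of the other libraries of its genotype, genes in the longest tertile of transcripts had a median log2 deviation of -0.36 in wild-type replicate 2 and -0.22 in knockout replicate 1. For the shortest tertile the medians were 0.42 and 0.41. For many of the genes in which these libraries lay far from the others, fold changes are given with and without them.

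The cells carried the markers of heart muscle. All 10 cardiomyocyte markers, TNNT2, ACTN2 and RYR2 among them, were detected, with summed normalized counts of 1258400 to 1570110 in the wild type and 1818900 to 3330220 in the knockout. MYL7 had the largest share of these sums, with means of 541523 and 1481020, and the highest sum was in knockout replicate 1. Liver, a tissue rich in these pathways, was represented together with endoderm by 11 markers whose sums were 1851 to 3249 and 1571 to 1816. FOXA2 was at 0 in all libraries, and ALB, HNF4A and SOX17 had means under 10. Of the 7 liver and endoderm markers tested, 2 fell and 1 rose. The 1 that rose, APOB, went from a mean of 1.72 to 366 (log2 fold change 7.42, limma adjusted p = 0.000938). Smooth muscle markers were higher in the knockout, with all 5 past the threshold and sums of 79383 to 89832 against 491950 to 539638. Of 12 cell cycle genes 5 fell and 0 rose, with sums of 53514 to 61449 against 30366 to 37865. Of the other lists, 4 of 8 fibroblast markers passed (3 higher), 3 of 6 tested neural markers were higher, and 0 of 3 tested endothelial markers passed. Of the 10 cardiomyocyte markers, 0 rose and 1, NKX2-5, fell, and the log2 fold change was positive in 6 and negative in 4. The part of these cell types and of the cell cycle in the results that follow was not tested. In bulk RNA, more cells of a type and more RNA per cell cannot be told apart.

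Transcripts of cholesterol synthesis enzymes were mostly higher in the knockout cardiomyocytes. Of the 34 genes, 10 rose and 2 fell (limma adjusted p under 0.05), that is 35.3% against 12.8% of all genes tested. The 10 that rose were ACAT2, MVD, IDI1, FDPS, FDFT1, NSDHL, HSD17B7, EBP, DHCR7 and SREBF1, and the 2 that fell were SC5D and MYLIP. Among the 18 enzymes of the cholesterol branch 9 rose and 1 fell, and 0 of the 5 fatty acid synthesis enzymes passed. The median log2 fold change was 0.58 over the 34 genes, 0.93 over the 18 enzymes and 0.0052 over all genes tested. In 14 of the 34 the knockout libraries all lay above the wild type and in 4 all below, against 16.2% and 17.2% of all genes.

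These counts depended on single libraries and on scaling. The number of genes that rose was 3 when wild-type replicate 1 was left out, 4 for wild-type replicate 3, 6 for knockout replicate 2 and 4 for knockout replicate 3. In the same fits 5.11%, 5.87%, 8.16% and 6.18% of all genes passed in either direction, and 4, 6, 8 and 6 of the 34. Without wild-type replicate 2, 10 rose, and without knockout replicate 1, 11 rose, with 10.1% and 14.2% of all genes past the threshold. With libraries scaled to equal totals 4 rose, and 12.9% of all genes passed. That scaling moved the median of all genes to -0.28 and that of the 34 to 0.30. Without both libraries that stand apart, 17 rose and 3 fell, with 30.6% of all genes past the threshold.

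**Figure D1:**
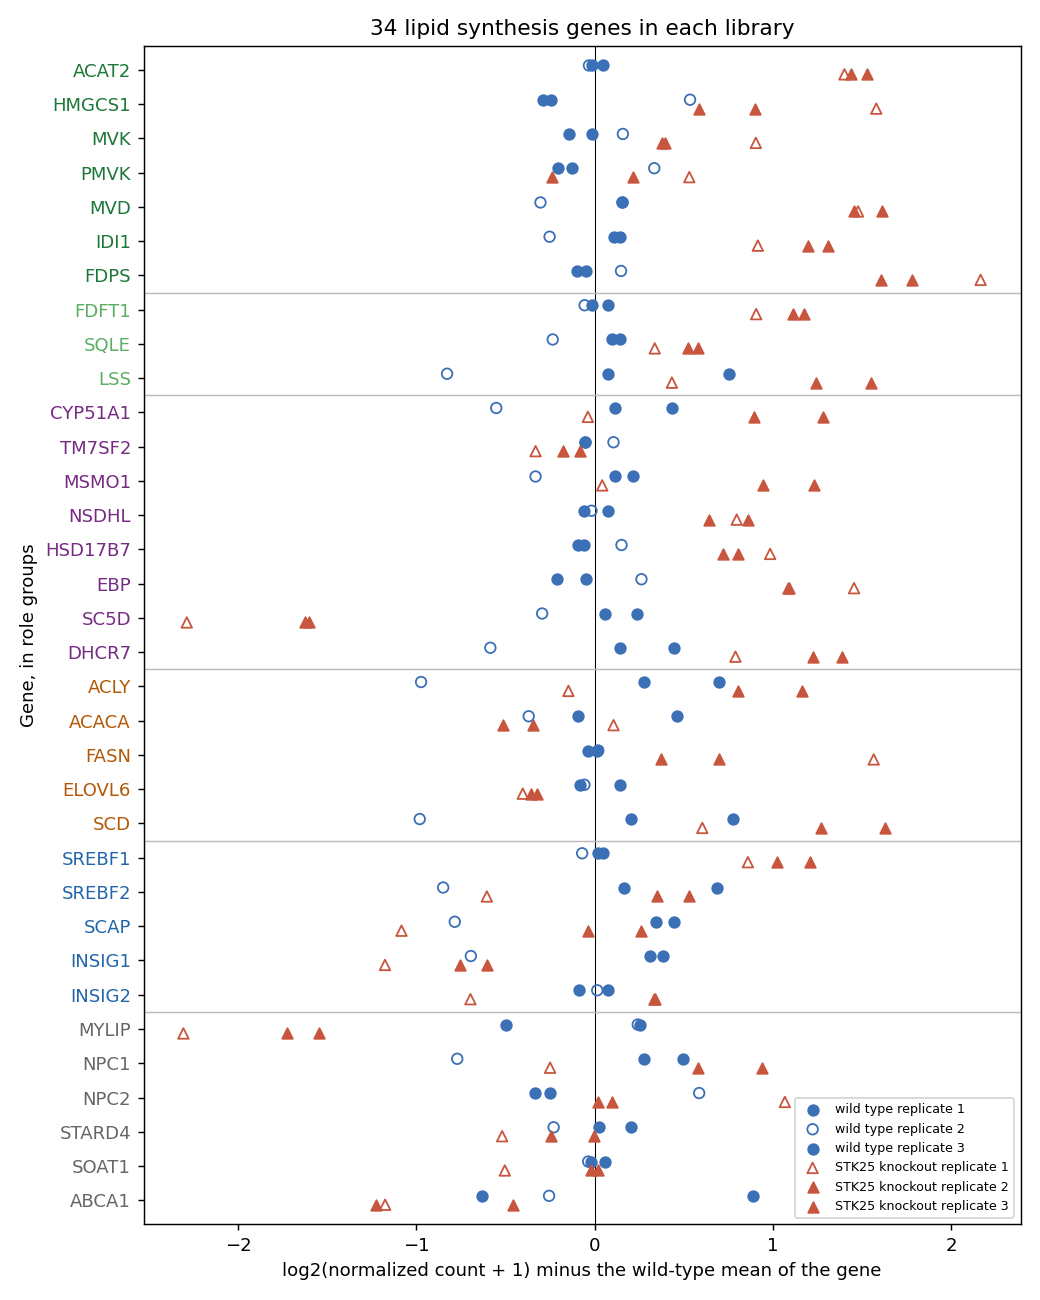
Each gene's log2(normalized count + 1) in each library, less the gene's wild-type mean, with wild-type libraries as circles and knockout libraries as triangles. Open symbols are wild-type replicate 2 and knockout replicate 1, and lines separate the role groups. The triangles of ACAT2, MVD, IDI1 and FDPS lie to the right of every circle and those of SC5D and MYLIP to the left.

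The mevalonate pathway had the highest mean difference among the role groups. In its 7 genes the mean log2 difference from the wild-type mean was 0.965 or more in each knockout library. In the wild-type libraries it was -0.024, 0.084 and -0.06, so the genotypes did not overlap. Of the 7 genes 4 rose and 0 fell.

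FDPS, which makes farnesyl diphosphate, the branch point to sterols and prenylated proteins, had the highest fold change of the 34 genes. Its normalized counts were 12812, 14663 and 12340.1 in wild-type replicates 1, 2 and 3 and 59368, 40307 and 45505 in the knockout. Every knockout library lay above every wild-type library, and the mean went from 13272 ± 1228 to 48393 ± 9853 (SD, n = 3 each), 3.65-fold. The log2 fold change was 1.85 (SE 0.22, limma adjusted p = 0.00214), and it passed under all 17 alternatives. FDPS lies on chromosome 1, 155308748 to 155320666 (GENCODE 29, GRCh38). Its exons overlap an antisense gene, RUSC1-AS1, and strand use in counting was not stated. Rows for 8 FDPS pseudogenes held at most 0.13% of the FDPS value in any library.

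ACAT2, the cytosolic thiolase that joins acetyl-CoA units at the head of the pathway, had close replicates. It had 6579, 6234 and 6314 normalized counts in the wild type and 16837, 17269 and 18348 in the knockout. The mean went from 6376 ± 181 to 17485 ± 778 (SD, n = 3 each). The fitted log2 fold change was 1.45 (SE 0.17, limma adjusted p = 0.00179). Neither genotype's values came near the other's. ACAT2 (chromosome 6, 159760328 to 159779055) overlaps exons of TCP1 and SOD2 on the opposite strand, so reads of the 3 genes may not be fully separate. TCP1 had a log2 fold change of 0.41 (limma adjusted p = 0.186) and SOD2 of 0.94 (limma adjusted p = 0.0211), both smaller than that of ACAT2.

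MVD decarboxylates mevalonate diphosphate to the first isoprenoid unit, and IDI1 interconverts its isomers. MVD had 4844, 3529 and 4838 normalized counts in the wild type and 12135, 11928 and 13311 in the knockout. The knockout values were tightly grouped, all above the highest wild-type value. Its log2 fold change was 1.51 (SE 0.20, limma adjusted p = 0.00306). IDI1 had 7907, 6149 and 8089 against 13821, 16802 and 18129, again without overlap. It rose by 1.14 (SE 0.21, limma adjusted p = 0.0116), and its adjusted p was 0.0765 with equal totals, 0.0561 when wild-type replicate 1 was left out and 0.0627 when knockout replicate 3 was. With the replicate number as a block, the limma adjusted p of IDI1 was 0.085.

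HMGCS1, MVK and PMVK were not past the threshold. HMGCS1, which makes the HMG-CoA from which mevalonate is formed, had 1128, 1997 and 1161 normalized counts in the wild type and 4121, 2575 and 2064 in the knockout. The libraries that stand apart were the highest of each genotype, and the knockout still lay above the wild type. Its log2 fold change was 1.02 (95% interval 0.26 to 1.79, limma adjusted p = 0.0861), and without those libraries it was 1.01 (limma adjusted p = 0.00125). The mevalonate kinase MVK had 902, 1016 and 824 against 1705, 1199 and 1185, a log2 fold change of 0.56 (95% interval 0.041 to 1.08, limma adjusted p = 0.152). PMVK, the kinase of the next step, ranged from 3082 to 4479 in wild-type libraries and between 3012 and 5133 in the knockout, and its values overlapped.

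**Figure D2:**
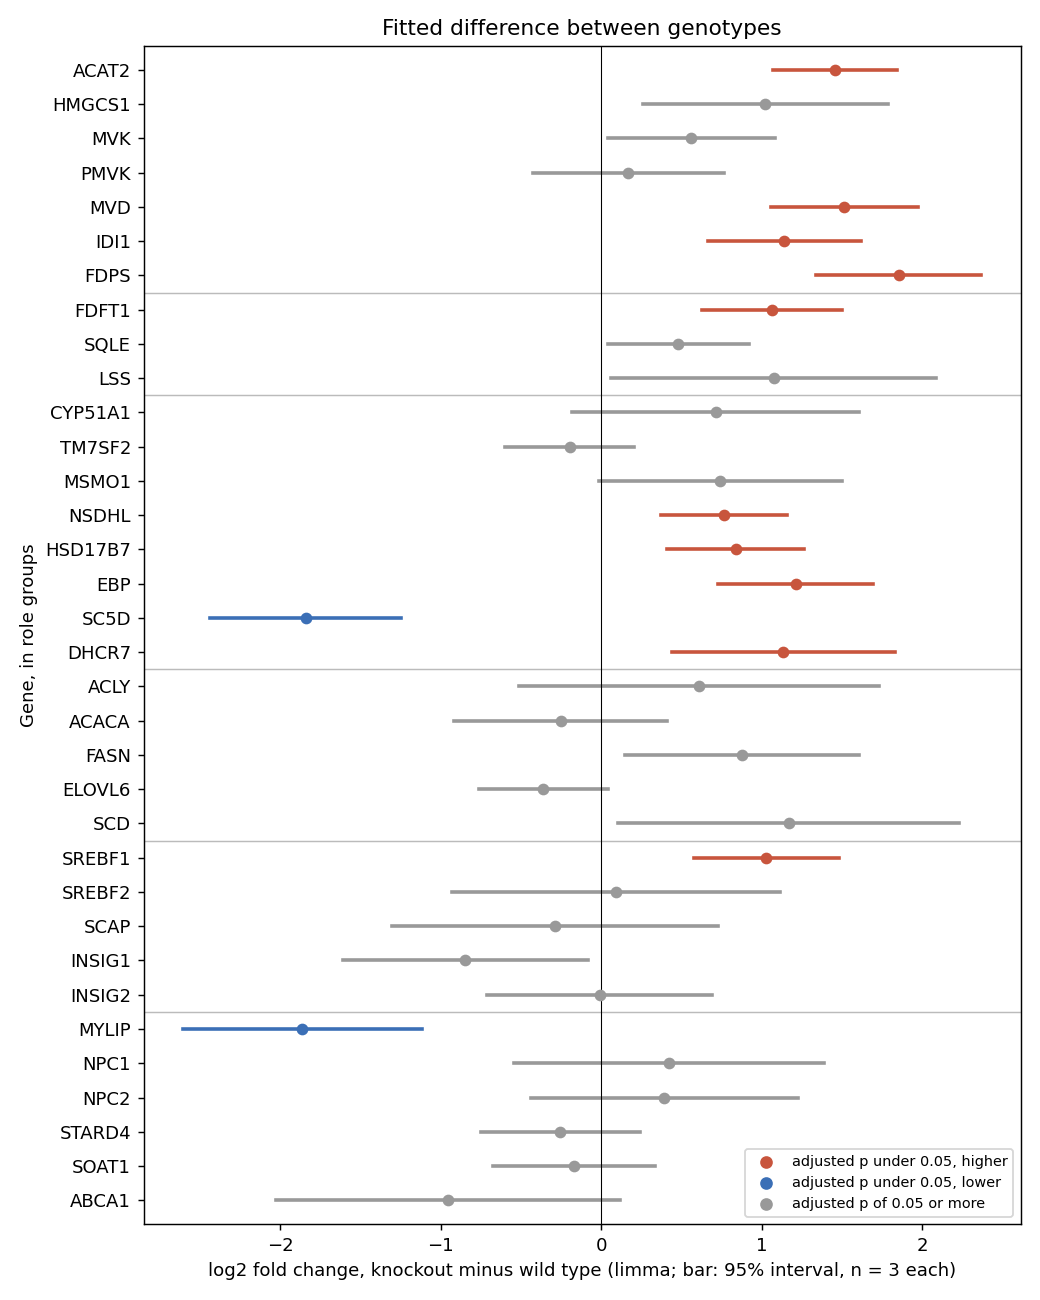
Fitted log2 fold change of each gene, knockout minus wild type, with its 95% interval from limma, 3 libraries a genotype. Red genes rose, blue genes fell and grey genes did not pass an adjusted p of 0.05; SC5D at -1.84 stands opposite to its neighbours EBP at 1.21 and DHCR7 at 1.13.

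Of the 3 genes whose enzymes make squalene and turn it into lanosterol, 1 rose. FDFT1, squalene synthase, had 15859.7, 15436 and 16893 normalized counts in the wild type and 30081, 34702 and 36174 in the knockout. The genotypes were far apart, and the mean went from 16063 ± 749 to 33652 ± 3179 (SD, n = 3 each), 2.1-fold. The log2 fold change was 1.06 (SE 0.19, limma adjusted p = 0.0107), and the adjusted p was 0.0564 with equal totals. Leaving out wild-type replicate 1 gave an adjusted p of 0.0731, leaving out wild-type replicate 3 gave 0.0517, and leaving out knockout replicate 3 gave 0.0627. With the replicate number as a block, the limma adjusted p of FDFT1 was 0.109. SQLE, squalene epoxidase, a rate-controlling step, had 3966, 3154 and 4091 against 4690.4, 5546 and 5340.3. Its knockout values were all higher, but the log2 fold change of 0.48 (95% interval 0.043 to 0.92) had a limma adjusted p of 0.145. LSS, which closes the sterol ring, ran from 1576 to 4718 in wild-type libraries and between 3779 and 8189.8 in the knockout. Its lowest value in each genotype came from the library that stands apart, and the genotypes overlapped.

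The enzymes that turn lanosterol into cholesterol moved in both directions: of 8 genes, 4 rose and 1 fell. The 4 were EBP, DHCR7, HSD17B7 and NSDHL, and in each the knockout libraries all lay above the wild type. EBP, the sterol isomerase that acts just before SC5D, had 2672, 3321 and 2391 normalized counts in the wild type and 7592, 5866 and 5904 in the knockout. That was a log2 fold change of 1.21 (SE 0.21, limma adjusted p = 0.0097), and the adjusted p was 0.059 when wild-type replicate 1 was left out and 0.0502 when wild-type replicate 3 was. With the replicate number as a block, the limma adjusted p of EBP was 0.065. NSDHL, which removes a carboxyl group in the demethylation of the sterol ring, had 3877, 3630.1 and 3527 against 6386, 5743 and 6671. HSD17B7, the keto-reductase of the same demethylation, had 1226, 1450.2 and 1253 against 2585, 2153 and 2281. Both had narrow ranges in each genotype, with log2 fold changes of 0.77 (SE 0.17) and 0.84 (SE 0.18) and limma adjusted p-values of 0.0243 and 0.0243. NSDHL and HSD17B7 no longer passed when the fit left out wild-type replicate 1 or 3, or knockout replicate 2 or 3. They also missed the threshold with equal totals, with the replicate number as a block and without a trend. Their limma adjusted p-values were up to 0.168 and 0.148 over all alternatives.

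SC5D went the other way. It encodes lathosterol oxidase, which makes 7-dehydrocholesterol, the substrate of DHCR7. SC5D had 23513, 18449 and 26706 normalized counts in wild-type replicates 1, 2 and 3 and 4632, 7326 and 7440.4 in the knockout. The highest knockout value was well under the lowest wild-type value, and the mean was 3.54-fold lower, from 22889 ± 4164 to 6466 ± 1589 (SD, n = 3 each). The log2 fold change was -1.84 (SE 0.26, limma adjusted p = 0.00395), and SC5D was past the threshold under all 17 alternatives. DHCR7, which reduces 7-dehydrocholesterol to cholesterol, had 4092, 2472 and 5043 in the wild type and 6413, 9693 and 8658 in the knockout. The difference of 1.13 (SE 0.30, limma adjusted p = 0.0466) was near the threshold and missed it under 11 of 17 alternatives, among them each fit without a single library except the one without knockout replicate 1. Without both libraries that stand apart DHCR7 was at 1.01 (limma adjusted p = 0.000467). SC5D lies on chromosome 11, 121292453 to 121308694, and DHCR7 on the same chromosome from 71428193 to 71452868.

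CYP51A1, MSMO1 and TM7SF2 did not pass. CYP51A1, the lanosterol demethylase, had 4119, 2592 and 5142 normalized counts in the wild type and 3702, 9223 and 7065 in the knockout. MSMO1, the methylsterol oxidase, had 5709, 4191 and 6131 against 5431, 12376 and 10169.6. In both, knockout replicate 1 lay among the wild-type values while knockout replicates 2 and 3 lay above them. The log2 fold change of CYP51A1 was 0.71 (limma adjusted p = 0.282), and 0.81 without both libraries that stand apart (limma adjusted p = 0.00389). That of MSMO1 was 0.74 (limma adjusted p = 0.191), and 0.92 without them (limma adjusted p = 0.000622). TM7SF2, a sterol reductase, had 4598, 5134 and 4602 against 3792, 4219 and 4508, slightly lower in each knockout library, with a log2 fold change of -0.20 (95% interval -0.60 to 0.20, limma adjusted p = 0.521).

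Fatty acid synthesis genes did not pass the test. FASN, the synthase that assembles palmitate, had 669, 695 and 693 normalized counts in the wild type and 2031, 1111 and 886 in the knockout. All knockout values were higher, but knockout replicate 1 was far above the others, and the log2 fold change of 0.88 (95% interval 0.15 to 1.60) had a limma adjusted p of 0.114. Without both libraries that stand apart it was 0.54 (limma adjusted p = 0.0577). SCD, which makes monounsaturated fatty acids, had 7286, 3199.8 and 10818 against 9603, 19520.5 and 15209, which overlapped. ACLY, which supplies cytosolic acetyl-CoA from citrate, had 4611, 1937 and 6165 against 3436, 8524 and 6649. For SCD and ACLY the library that stands apart was the lowest of its genotype. SCD had a log2 fold change of 1.17 (limma adjusted p = 0.146), and 0.96 without those libraries (limma adjusted p = 0.00329). ACLY had 0.61 (limma adjusted p = 0.474), and 0.50 without them (limma adjusted p = 0.0483). ACACA, the acetyl-CoA carboxylase that commits carbon to fatty acids, had 884, 728 and 1296 against 1013, 740.1 and 659, and its values overlapped. Its log2 fold change was -0.25 (limma adjusted p = 0.631), and -0.62 without both libraries that stand apart (limma adjusted p = 0.055). ELOVL6, which lengthens palmitate to stearate, had 2143, 2184 and 2508 against 1719, 1819 and 1773, lower in every knockout library, with a log2 fold change of -0.36 (95% interval -0.76 to 0.042, limma adjusted p = 0.229).

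**Figure D3:**
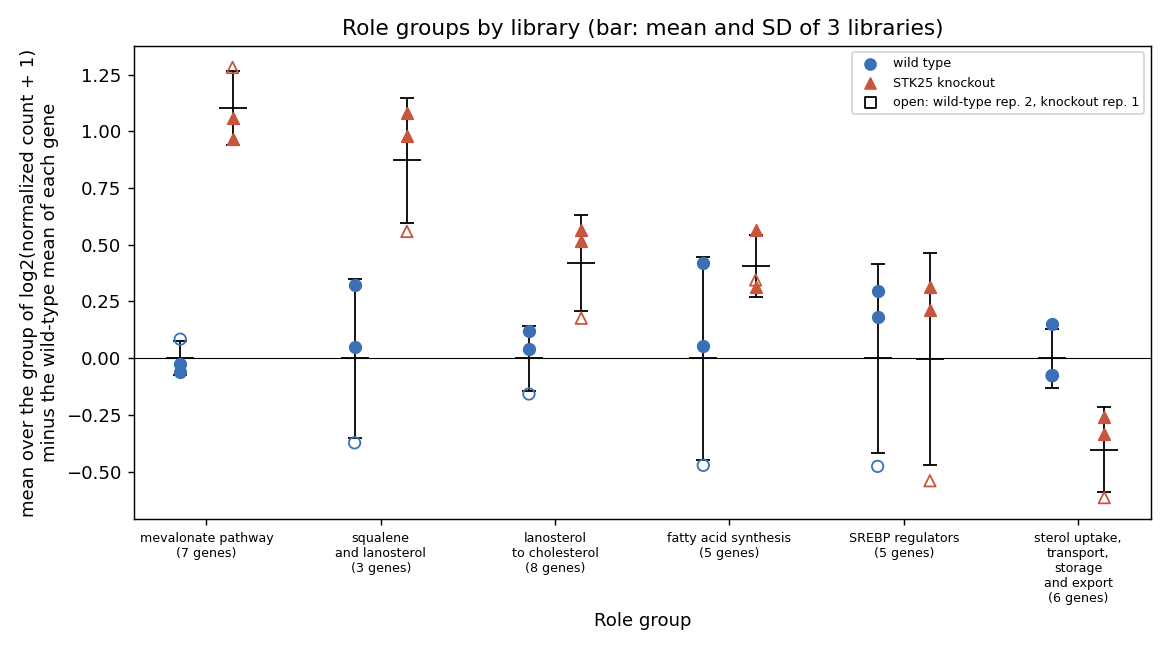
Mean over each role group of log2(normalized count + 1) less each gene's wild-type mean, 1 point per library, with the mean and SD of the 3 libraries of a genotype. The knockout lies above the wild type for the 3 sterol synthesis groups and overlaps it for fatty acid synthesis and the SREBP regulators. For uptake and transport it lies below, but of those 6 genes MYLIP alone was lower without overlap, and the other 5 overlapped.

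Among the regulators, SREBF1 rose and SREBF2 did not pass. SREBF1, the gene of SREBP-1, had 729.5, 685 and 744 normalized counts in wild-type replicates 1, 2 and 3 and 1305, 1659.6 and 1460.2 in the knockout. Each knockout library held more than every wild-type library, and the mean went from 719 ± 30.8 to 1475 ± 178 (SD, n = 3 each), 2.05-fold. SREBF1 had a log2 fold change of 1.03 (SE 0.19, limma adjusted p = 0.0137). It no longer passed when wild-type replicate 1 or 3 or knockout replicate 2 or 3 was left out. The same held with equal totals and with the replicate number as a block. Its limma adjusted p-values were up to 0.0983 over all alternatives. SREBF2, the gene of SREBP-2, had 6059.9, 2999 and 8698 against 3555, 7809 and 6899. The libraries that stand apart were the lowest of each genotype, and the other 4 overlapped. Its log2 fold change of 0.092 had a 95% interval of -0.93 to 1.11 (limma adjusted p = 0.925), and its sign turned with equal totals, to -0.19, and without wild-type replicate 2, to -0.33. Without both libraries that stand apart it was 0.016 (limma adjusted p = 0.956).

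SCAP, the escort of the SREBPs, had 4244, 1944 and 4555 normalized counts in the wild type and 1580, 4011 and 3266 in the knockout, again lowest in the libraries that stand apart. Its log2 fold change of -0.29 (95% interval -1.30 to 0.73, limma adjusted p = 0.735) turned to 0.11 without knockout replicate 1, and was -0.28 without both libraries that stand apart (limma adjusted p = 0.17). INSIG2, a retention factor for SCAP, had 1491, 1430.4 and 1332 against 873, 1784 and 1789. Knockout replicate 1 lay under the wild type and the other knockout libraries above it, so no direction could be read (log2 fold change -0.0089, 95% interval -0.71 to 0.69). It was 0.34 without both libraries (limma adjusted p = 0.123).

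INSIG1, the other retention factor and a known SREBP target, did not pass, and its log2 fold change was negative. It had 1838, 916 and 1939 normalized counts in the wild type and 656, 878 and 974 in the knockout. Wild-type replicate 2 lay inside the knockout range, and the other wild-type libraries lay above it. The log2 fold change was -0.85 (95% interval -1.61 to -0.083, limma adjusted p = 0.142), and -1.03 without both libraries that stand apart (limma adjusted p = 0.00097). INSIG1 lies near the end of the long arm of chromosome 7, from 155297776 to 155310235, where most genes were lower in the knockout. In the 20 Mb bin that holds it, from 140 to 160 Mb, the median log2 fold change of 95 tested genes was -1.04, and 87.4% were lower. Within 5 Mb of INSIG1, 40 of 45 other tested genes had a negative log2 fold change and 19 fell. The bins of the other 33 genes had medians from -0.23 to 0.26. Whether INSIG1 differs from its chromosomal stretch was not tested.

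**Figure D4:**
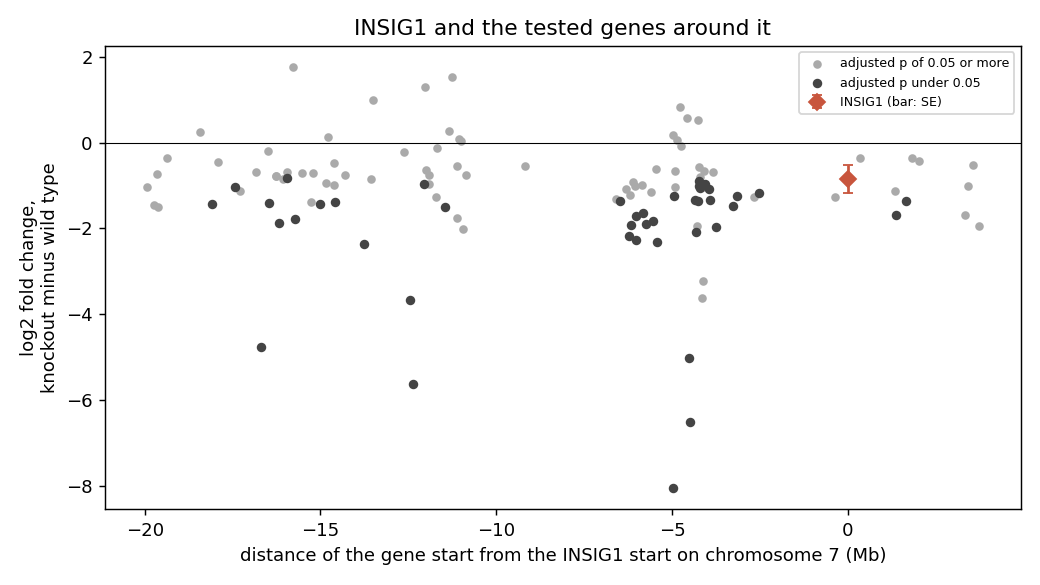
Log2 fold change of the tested genes within 20 Mb of INSIG1, against the distance of their starts from the INSIG1 start in Mb, with genes past an adjusted p of 0.05 in black and INSIG1 with its SE in red. INSIG1 at -0.85 lies within the band of its neighbours, whose median within 5 Mb is -1.07.

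Of 6 genes of sterol uptake, transport, storage and export, MYLIP fell and 0 rose. MYLIP encodes IDOL, a ubiquitin ligase that marks lipoprotein receptors for breakdown and is induced by the sterol sensor LXR. Its normalized counts were 980.3, 972 and 582 in the wild type and 165, 247 and 281 in the knockout, without overlap. The mean went from 845 ± 227 to 231 ± 59.5 (SD, n = 3 each), 3.65-fold lower. MYLIP had a log2 fold change of -1.86 (SE 0.32, limma adjusted p = 0.0097), and without wild-type replicate 1 it was -1.73 (limma adjusted p = 0.0573). ABCA1, the LXR-induced exporter of cholesterol, had 128, 167 and 369 against 87.7, 84.7 and 145. The wild-type values were widely spread and the log2 fold change of -0.95 (95% interval -2.02 to 0.12) had a limma adjusted p of 0.232.

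The remaining transport genes had overlapping values. NPC1 and NPC2, which move cholesterol out of lysosomes, had 95% intervals of -0.54 to 1.39 and -0.44 to 1.23 for their log2 fold changes. NPC1 was lowest and NPC2 highest in the libraries that stand apart, at 561 and 10289 in wild-type replicate 2 and 806 and 14356 in knockout replicate 1. Without both libraries their log2 fold changes were 0.37 and 0.35, at limma adjusted p-values of 0.145 and 0.0542. STARD4, a cytosolic sterol carrier, ranged from 2744 to 3711 in wild-type libraries and between 2246 and 3211 in the knockout. SOAT1, which esterifies cholesterol for storage, ranged from 1025 to 1094 and from 741 to 1066.

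In many of the 34 genes, wild-type replicate 2 and knockout replicate 1 deviated in the same direction: 21 were low in both and 8 high in both. Over the 34 genes, the deviation of wild-type replicate 2 from the other wild-type libraries followed that of knockout replicate 1 from the other knockout libraries, with Pearson's r = 0.758 and Spearman's rho = 0.735 across genes, which share these libraries. In all, 8 genes were over 0.5 log2 units low in both, LSS, CYP51A1, DHCR7, ACLY, SCD, SREBF2, SCAP and NPC1. Of these, DHCR7 alone passed. Their transcripts had a median length of 4139 bases, and those of the other genes 1978. Across the 34 genes, Spearman's rho between transcript length and the deviation was -0.553 in wild-type replicate 2 and -0.316 in knockout replicate 1, and over all tested genes with a length -0.422 and -0.279. Without both libraries, the 12 genes past the threshold remained and 8 more joined them. HMGCS1, SQLE, LSS, CYP51A1, MSMO1, ACLY and SCD were then higher in the knockout and INSIG1 lower. LSS, for example, went from 1.08 (limma adjusted p = 0.157) to 0.98 (limma adjusted p = 0.00464), and SQLE from 0.48 to 0.43 (limma adjusted p = 0.0245). This fit, chosen after the values were seen, had 2 libraries a genotype.

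**Figure D5:**
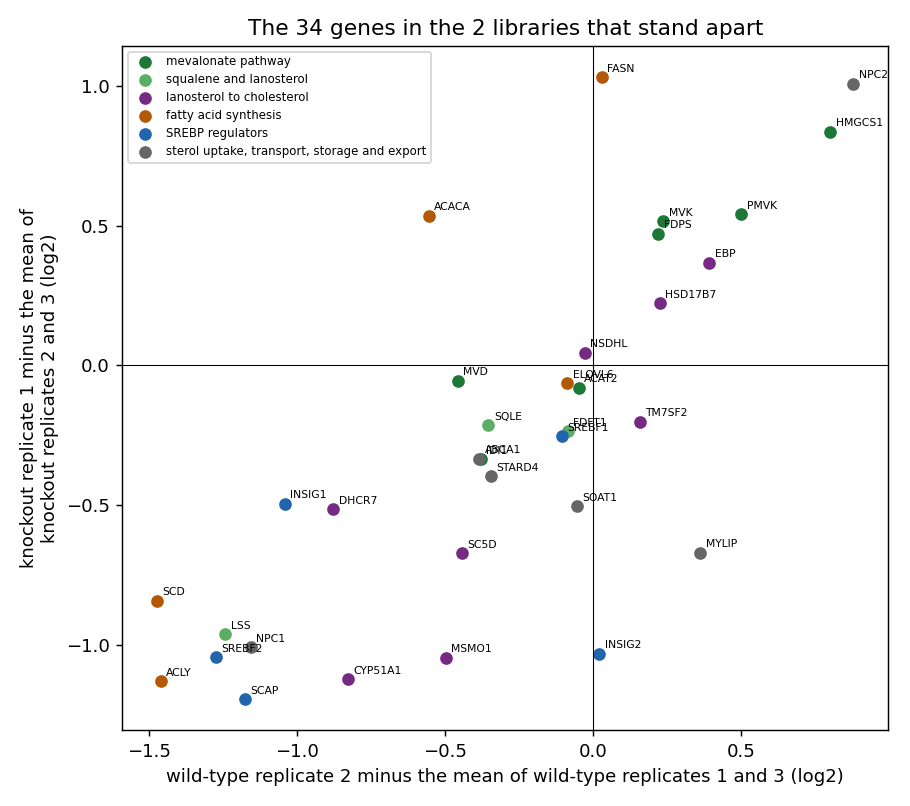
Deviation of each of the 34 genes in wild-type replicate 2 (horizontal) and knockout replicate 1 (vertical) from the mean of the other libraries of the same genotype, in log2 units, coloured by role. Most points lie along the diagonal, with SREBF2, SCAP, NPC1, LSS, SCD and ACLY at the lower left and HMGCS1 and NPC2 at the upper right.

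A second list of 87 lipid genes set the 34 in context: partners of sterol synthesis, isoprenoid branches, SREBP processing, LXR and its targets, fatty acid chain building, glycerolipid synthesis, and sterol transport and oxysterols. Of the 82 tested, 7 rose and 5 fell, 14.6% against 12.8% of all genes, so the share was near the background. Their median log2 fold change was 0.16. The 11 sterol synthesis partners had a median of -0.21, with 7 negative and 4 positive. In the other 6 groups, passing genes numbered 1 of 9 isoprenoid genes, 1 of 9 processing genes, 1 of 6 LXR genes, 2 of 27 chain-building genes, 2 of 9 glycerolipid genes and 4 of 11 transport and oxysterol genes. In that last group 2 rose and 2 fell, 8 of the 11 were negative and the median was -0.48.

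The 7 genes that rose came from 5 of these groups. VLDLR, a lipoprotein receptor that IDOL acts on, had 1835, 1449 and 2368 normalized counts in the wild type and 5623, 8282 and 6635 in the knockout, a log2 fold change of 1.87 (SE 0.25, limma adjusted p = 0.00314). STARD5, a sterol-binding START protein, had 49.8, 71.6 and 80.4 against 304, 275 and 279 (2.10, limma adjusted p = 0.00546). Both were without overlap between genotypes. SPRING1, listed under its older symbol C12orf49 and needed for SREBP cleavage, had 832, 896 and 880.3 against 1421, 1517 and 1416 (0.74, limma adjusted p = 0.0341). PNPLA3, a lipid droplet hydrolase and SREBP-1 target, had 174, 84.5 and 164 against 454, 587 and 506 (1.93, limma adjusted p = 0.0109). The other genes that rose were ELOVL4, an elongase of very long chains, PCYT2, of phosphatidylethanolamine synthesis, and NCOA1, a nuclear receptor coactivator, at 1.77, 1.16 and 1.11 on the log2 scale (limma adjusted p = 0.00214, 0.0137 and 0.0423).

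The 5 that fell included CYP27A1 and HSD3B7, which had the most negative fold changes of the 5. CYP27A1, sterol 27-hydroxylase, had 2855, 2396 and 2542 normalized counts in the wild type and 735, 805 and 894 in the knockout, 3.2-fold lower on average (log2 fold change -1.68, SE 0.19, limma adjusted p = 0.00164). HSD3B7, which acts on oxysterols in bile acid synthesis, had 229.6, 226 and 195 against 57.2, 83.6 and 95.1 (-1.48, limma adjusted p = 0.0243). The knockout values of both lay under the wild type. FADS3, of the fatty acid desaturase family, and COQ2, of ubiquinone synthesis, stood at -0.88 and -0.75 on the log2 scale (limma adjusted p = 0.0266 and 0.0454). VLDLR, STARD5, PNPLA3, ELOVL4 and CYP27A1 were past the threshold under all 17 alternatives, and SPRING1, PCYT2, NCOA1, HSD3B7, FADS3 and COQ2 missed it when wild-type replicate 1, knockout replicate 2 or knockout replicate 3 was left out, with adjusted p-values of up to 0.212.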

How the data were processed

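Per the labels' protocols, RNA was purified on Qiagen RNeasy columns with DNase, cDNA was made with Clontech Ultra Low v4 and libraries with NexteraXT. Per the submitters' processing notes, bcl2fastq 2.19, kallisto 0.44.0, DESeq2 1.28.1 and GRCh38 were used, with no role given. The deposited signal is 1 normalized count per gene and library. Every value was a whole number of reads (within 0.001) divided by 1 factor per library, so reads were recovered for 100% of values. Libraries carried no stated molecular identifiers, so depth speaks to counting error only, and p-values measure the spread between these replicates. Chi-square per degree of freedom between replicates ran from 18.9 to 362.8, so each counts as 1 sample.

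Tests used R 4.3.3 and limma 3.58.1 (lmFit, eBayes with a trend) on log2(value + 1), a scale that understates changes of low genes, for genes averaging 10 or more over 6 libraries, with Benjamini-Hochberg adjustment over all tested genes and a threshold of 0.05. Alternatives were pseudocounts of 0.1 and 10, no filter on low values, a filter at 50, equal upper quartiles or totals, a replicate block, no trend, edgeR 4.0.16, DESeq2 1.42.0, leaving out each library and, added later, leaving out both libraries that stand apart. Members, lists and tests were chosen with earlier results of these data known. All 34 members are accounted for; of the other lipid genes those with an adjusted p under 0.05 are named, except 1 that is not reported here. TCP1, SOD2, APOB and MYL7 were named after their values were seen. Positions and transcript lengths (median over basic protein-coding transcripts, found for 97.7% of tested genes) are from GENCODE 29. The fits were tested on simulated data. Figures used Python 3.11.15 and matplotlib 3.10.9.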

Additional observations from a re-analysis of the deposited data

How the results depend on the processing

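Leaving out 1 library at a time, genes past the limma threshold ran from 792 to 2192, members higher from 3 to 11, members lower from 1 to 3, other lipid genes higher from 4 to 11 and lower from 1 to 4, the median of the members from 0.46 to 0.70 and STK25 from -1.24 to -1.05. With the replicate number as a block they were 798 genes, 3 members higher, 4 other lipid genes higher and 1 lower, and STK25 was -1.12 (limma adjusted p = 0.0684). Deviations of same-numbered libraries correlated at -0.235, -0.40 and 0.169, and those of wild-type replicate 2 and knockout replicate 1 at 0.448. These deviations are taken within the 3 libraries of a genotype, so they cannot show whether samples were handled in pairs. With equal totals 4 members and 4 other lipid genes were higher, the median of the members was 0.30, and 27.1% of called genes were higher in place of 46.8%. DESeq2 called 3210 genes and 14 other lipid genes higher. With no filter, and without a trend, 3 other lipid genes were lower. Without both libraries that stand apart, 4706 genes passed, 17 members were higher, and 24 other lipid genes were higher and 11 lower. Signs turned for 4 genes that did not pass: PMVK was -0.11 with equal totals and -0.011 without knockout replicate 1; SREBF2 was -0.19 with equal totals and -0.33, -0.13 and -0.037 without wild-type replicate 2, knockout replicate 2 or knockout replicate 3; SCAP was 0.11 without knockout replicate 1. INSIG2 was 0.054 with edgeR, 0.063 with DESeq2, 0.028 and 0.34 without wild-type replicate 1 or knockout replicate 1, and 0.34 without both libraries. Over fits without 1 library, PMVK ran from -0.011 to 0.37; SREBF2 ran from -0.33 to 0.44; SCAP ran from -0.68 to 0.11; INSIG2 ran from -0.18 to 0.34. Over the members and the other lipid genes past the threshold in the main fit, 664 of 782 alternative values kept direction and side of the threshold. Of the rest, 93 no longer passed, 13 newly passed and 12 turned. The causes were not tested. With 3 libraries a genotype, an exact permutation test cannot go below p = 0.1. A genotype left with 2 libraries relies on a spread pooled over both.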

Other observations

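Ratios within a library do not depend on the scaling of libraries. The ratio of DHCR7 to SC5D normalized counts, 2 enzymes that act 1 after the other, was 0.174, 0.134 and 0.189 in wild-type replicates 1, 2 and 3 and 1.38, 1.32 and 1.16 in the knockout. The genotypes did not overlap (means 0.166 ± 0.0284 and 1.29 ± 0.114, SD, n = 3 each; exact two-sided permutation p = 0.1, the smallest that 3 against 3 allows). The ratio of SREBF1 to SREBF2 was 0.12, 0.228 and 0.0855 in the wild type and 0.367, 0.213 and 0.212 in the knockout, which overlapped (exact two-sided permutation p = 0.3). The overlap came from wild-type replicate 2, and the other wild-type values lay under every knockout value. Both ratios were picked after their genes' values were seen.

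Rows named as pseudogenes of the members held little. The highest relative to its parent was HSD17B7P2, at most 0.407% of HSD17B7 in any library.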
